A study of Mus musculus with 9 samples.

Results

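Receptor-type protein tyrosine phosphatases were examined in the cerebral cortex of mouse embryos of 3 Sfpq genotypes. The set holds 10 genes chosen by name: Ptprd, Ptprf and Ptprs of the LAR group, Ptprk, Ptprm, Ptprt and Ptpru of the MAM-domain group, Ptpro, and the carbonic anhydrase-like pair Ptprg and Ptprz1. Their probe sets were those that the platform annotation gives to 1 of these genes alone. Of the 10 genes, 9 had such probe sets, 429 in all, and all 9 were among the 16854 genes measured. Ptprt had none and was not analysed here.

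The study profiled cortex dissected at E13.5 on Affymetrix Mouse Exon arrays, with 1 array per sample. There were 3 control samples labelled wild type, 3 heterozygous samples (Sfpq+/-) and 3 homozygous samples (Sfpq-/-). Sfpq is a nuclear protein that binds RNA and acts in transcription and RNA processing. The labels give no strain or litter, do not say how the Sfpq allele was made or in which cells it was deleted, and do not tell whether replicates are separate embryos, so p-values cover the spread among these arrays, which may be technical. The extraction note lists Sfpq+/- a second time in the place of Sfpq-/-, and groups were taken from titles and genotype fields.

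These enzymes are membrane proteins with an adhesion-like extracellular part and intracellular phosphatase domains that remove phosphate from tyrosines, opposite to the action of tyrosine kinases. In the developing nervous system they act in axon growth and guidance, in synapse formation and in the adhesion of progenitors and radial glia. LAR-group receptors bind heparan sulfate proteoglycans and synaptic adhesion partners such as the Slitrk proteins and the neurotrophin receptor TrkC. Ptprz1 carries chondroitin sulfate chains and binds the growth factors pleiotrophin and midkine. MAM-group receptors bind their own kind on neighbouring cells.

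The stretches upstream of 4 members are shown because these genes passed the test in Sfpq-/- cortex: Ptpro, Ptprg and Ptpru were lower and Ptprf was higher. Ptprd, the fifth that passed, had no entry. Each is the 250 bases before the gene's first listed start, from RefSeq (GRCm38.p6), written 5′ to 3′ on the gene's strand. Capitals mark the GC box core GGGCGG or its reverse complement, searched on both strands.
Ptpro (chr6:137252049-137252298, + strand): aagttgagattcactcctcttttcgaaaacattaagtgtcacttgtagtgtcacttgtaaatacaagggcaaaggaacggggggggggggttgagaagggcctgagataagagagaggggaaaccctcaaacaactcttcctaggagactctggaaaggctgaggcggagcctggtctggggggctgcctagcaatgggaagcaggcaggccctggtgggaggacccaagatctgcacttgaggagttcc
Ptprg (chr14:11553303-11553552, + strand): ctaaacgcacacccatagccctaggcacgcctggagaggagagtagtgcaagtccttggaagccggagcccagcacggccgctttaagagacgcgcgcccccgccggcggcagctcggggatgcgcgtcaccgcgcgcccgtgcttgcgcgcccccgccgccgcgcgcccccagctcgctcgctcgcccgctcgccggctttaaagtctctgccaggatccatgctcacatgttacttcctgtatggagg
Ptpru (chr4:131838279-131838528, - strand): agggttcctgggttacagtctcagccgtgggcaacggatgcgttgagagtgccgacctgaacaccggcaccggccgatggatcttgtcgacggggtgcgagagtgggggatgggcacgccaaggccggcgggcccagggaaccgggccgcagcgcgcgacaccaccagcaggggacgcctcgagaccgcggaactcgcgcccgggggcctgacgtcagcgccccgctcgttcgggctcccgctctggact
Ptprf (chr4:118291398-118291647, - strand): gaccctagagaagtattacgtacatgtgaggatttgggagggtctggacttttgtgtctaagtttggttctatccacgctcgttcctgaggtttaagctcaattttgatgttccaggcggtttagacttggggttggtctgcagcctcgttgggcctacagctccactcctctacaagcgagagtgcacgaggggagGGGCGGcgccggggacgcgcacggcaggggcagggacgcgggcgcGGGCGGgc
The stretch before Ptpro held 3 CpG dinucleotides, against 31 for Ptprg, 31 for Ptpru and 18 for Ptprf, where the median over 32851 such stretches was 6. The GGGCGG letters were found before Ptprf and not in the other 3 stretches printed. Over the 11 stretches listed for 9 members, 6 held them, as did 32.7% of all stretches. These 9 members include Ptprt, which was not measured and whose stretch is 1 of the 6, and lack Ptprd. None of the 11 held TATAAA on either strand, which 12.4% of all stretches did. These are descriptions of the letters and were not compared with the arrays.

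The gene level was the mean log2 signal of a gene's kept probe sets, those with a mean above 5.64 over the 9 arrays (the median of all probe sets). Of the members' 429 probe sets, 410 were kept, between 33 for Ptpro and 78 for Ptprd. Levels of different genes rest on different probes and were not set against each other. The check of the labels used the 12 Sfpq probe sets with a control mean above 10: the mean of these in Sfpq-/- was 3.90-fold below controls (log2 change -1.96, SE 0.09), and Sfpq+/- differed from controls by -0.13 (SE 0.09, 95% interval -0.34 to 0.08), so the Sfpq signal did not separate the arrays labelled Sfpq+/- from the controls. Dorsal forebrain markers were above the limit of 5.64 in controls, with means such as 8.84 for Emx1 and 9.87 for Tbr1.

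Sfpq-/- cortex differed from control cortex in 5 of the 9 measured receptors. Ptpro, Ptprg, Ptprd and Ptpru fell and Ptprf rose, while Ptprk, Ptprm, Ptprs and Ptprz1 did not pass limma's test with Benjamini-Hochberg adjustment over all genes (threshold 0.05). Over all 16854 genes tested the same comparison called 12.1%, of which 6.12% were lower and 5.98% higher, and 24.2% had an unadjusted p under 0.05. The median log2 change of the 9 members was -0.28, against 0.03 for all genes. In 5 members the 3 Sfpq-/- arrays all lay below the 3 control arrays (10.8% of all genes) and in 2 they all lay above them (16.1% of all genes). The same 5 members passed against Sfpq+/- cortex, in the same directions, where 7.25% of all genes were lower and 4.58% higher (11.8% in all). There the arrays lay lower without overlap in 6 members (13.6% of all genes) and higher in 2 (13.2% of all genes). Both comparisons use the same Sfpq-/- arrays. No member passed in Sfpq+/- against control.

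**Figure D1:**
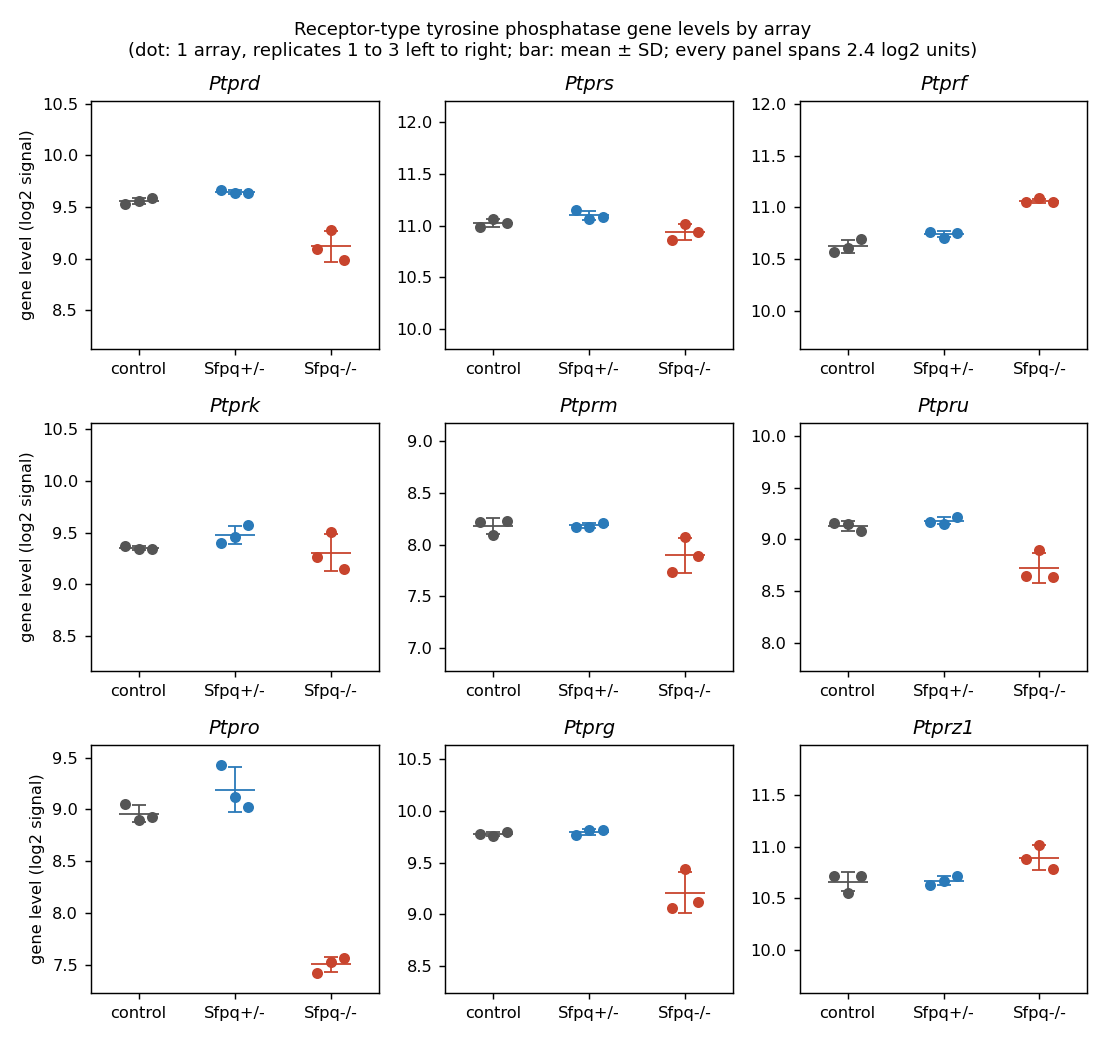
Gene level in log2 signal (vertical axis) of 9 receptor-type tyrosine phosphatases on each array of the control, Sfpq+/- and Sfpq-/- groups (horizontal axis), with each group's mean and SD, n = 3. The Sfpq-/- arrays of Ptpro sit between 7.42 and 7.56 and its control arrays between 8.90 and 9.05. The Sfpq-/- and control arrays of Ptprs overlap.

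Ptpro, a receptor with fibronectin repeats and 1 phosphatase domain that is known from kidney podocytes and from axon guidance, had the largest change. Its gene level was 9.05, 8.90 and 8.93 on the control arrays, 9.43, 9.12 and 9.02 on the Sfpq+/- arrays and 7.42, 7.52 and 7.56 on the Sfpq-/- arrays. All Sfpq-/- arrays lay far below the other 6, and the spread within Sfpq-/- was small. The mean went from 8.96 ± 0.08 to 7.50 ± 0.07 (SD, n = 3), 2.75-fold lower (log2 change -1.46, SE 0.11, limma adjusted p = 6.98e-06). Against Sfpq+/- it was 3.23-fold lower (log2 change -1.69, SE 0.11, limma adjusted p = 2.28e-06). Ptpro was the 44th gene from the lowest change among the 16854. The fall was as clear in its single probe sets: all 33 had a lower mean in Sfpq-/- and no overlap with control arrays, where 10.4% of the 248590 kept probe sets of measured genes lay lower without overlap.

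Of the LAR group Ptprd fell, Ptprf rose and Ptprs did not pass. Ptprd, an organiser of synapses and a receptor for axon growth signals, read 9.52, 9.56 and 9.59 in controls, 9.67, 9.63 and 9.63 in Sfpq+/- and 9.09, 9.28 and 8.99 in Sfpq-/- cortex. It fell 1.35-fold (log2 change -0.44, SE 0.08, limma adjusted p = 0.00498), with no overlap between groups and with Sfpq-/- replicate 2 the least low. Ptprf, which encodes LAR itself, a regulator of cell adhesion and axon growth, read 10.57, 10.61 and 10.69 in controls, 10.76, 10.71 and 10.75 in Sfpq+/- and 11.05, 11.09 and 11.05 in Sfpq-/-. It rose 1.36-fold (log2 change 0.44, SE 0.07, limma adjusted p = 0.00126), and the 3 groups did not overlap. The Sfpq+/- arrays of Ptprf stood between the other groups, with a log2 difference from control of 0.12 (SE 0.07, limma adjusted p = 0.886). Ptprs, the receptor through which chondroitin sulfate proteoglycans restrain axon growth, read 10.98, 11.06 and 11.02 in controls, 11.15, 11.07 and 11.08 in Sfpq+/- and 10.86, 11.01 and 10.94 in Sfpq-/-. Its Sfpq-/- and control arrays overlapped, and its log2 change of -0.08 (95% interval -0.24 to 0.07, limma adjusted p = 0.546) did not pass.

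Of the MAM-domain group Ptpru fell, and Ptprm and Ptprk did not pass. Ptpru, a homophilic receptor that acts on catenins, read 9.16, 9.15 and 9.08 in controls, 9.17, 9.15 and 9.22 in Sfpq+/- and 8.64, 8.89 and 8.63 in Sfpq-/- cortex, and fell 1.32-fold (log2 change -0.40, SE 0.08, limma adjusted p = 0.00847). No Sfpq-/- array reached the lowest array of the other groups. Ptprm, a homophilic receptor that binds cadherin complexes, read 8.22, 8.09 and 8.22 in controls, 8.17, 8.17 and 8.21 in Sfpq+/- and 7.73, 8.07 and 7.89 in Sfpq-/-. All Sfpq-/- arrays lay below all control arrays, while the Sfpq+/- arrays lay within the control range, and its log2 change of -0.28 (95% interval -0.48 to -0.08, limma adjusted p = 0.0747) did not pass. Without Sfpq-/- replicate 2, the highest of its group, it was -0.37 (limma adjusted p = 0.0166), and it also passed with the stricter filter on dim probe sets (limma adjusted p = 0.0299). Ptprk, which acts at cell contacts on catenins and growth factor receptors, read 9.37, 9.35 and 9.34 in controls, 9.40, 9.46 and 9.58 in Sfpq+/- and 9.27, 9.50 and 9.15 in Sfpq-/-. Its Sfpq-/- arrays spread on either side of the controls, and its log2 change was -0.04 (95% interval -0.25 to 0.16, limma adjusted p = 0.839).

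In the carbonic anhydrase-like pair the values lay on opposite sides of the controls. Ptprg, a receptor for contactins, read 9.78, 9.76 and 9.79 in controls, 9.77, 9.82 and 9.81 in Sfpq+/- and 9.07, 9.44 and 9.12 in Sfpq-/- cortex. It fell 1.48-fold (log2 change -0.57, SE 0.09, limma adjusted p = 0.00225), and replicate 2 was again the highest of the Sfpq-/- arrays. Ptprz1, the chondroitin sulfate-bearing receptor of radial glia, read 10.72, 10.56 and 10.71 in controls, 10.63, 10.66 and 10.72 in Sfpq+/- and 10.88, 11.02 and 10.78 in Sfpq-/-. Every Sfpq-/- array lay above every other array, but the log2 change of 0.23 (95% interval 0.05 to 0.41, limma adjusted p = 0.108) did not pass. Without Sfpq-/- replicate 3 it was 0.29 (limma adjusted p = 0.0486).

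Whether related members moved apart was tested within each array, as the difference of the log2 levels of 2 genes in Sfpq-/- against control, for 6 pairs of the same group. Relative to Ptprs, Ptprd changed by -0.35. Relative to Ptprf, Ptprd changed by -0.88 and Ptprs by -0.53. Relative to Ptprk, Ptprm changed by -0.24 and Ptpru by -0.36, and relative to Ptprz1, Ptprg changed by -0.80. In these 6 pairs the 3 Sfpq-/- arrays did not overlap the 3 control arrays. The two-sided exact permutation p was 0.1 for each (0.1 also adjusted over the 6 pairs), the smallest that 3 against 3 arrays allow. The other pair of the MAM-domain group, Ptprm and Ptpru, was not among the 6 and was not tested. By the levels given above, its within-array difference overlaps between Sfpq-/- and control arrays, so moving apart does not hold for every pair of a group.

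**Figure D2:**
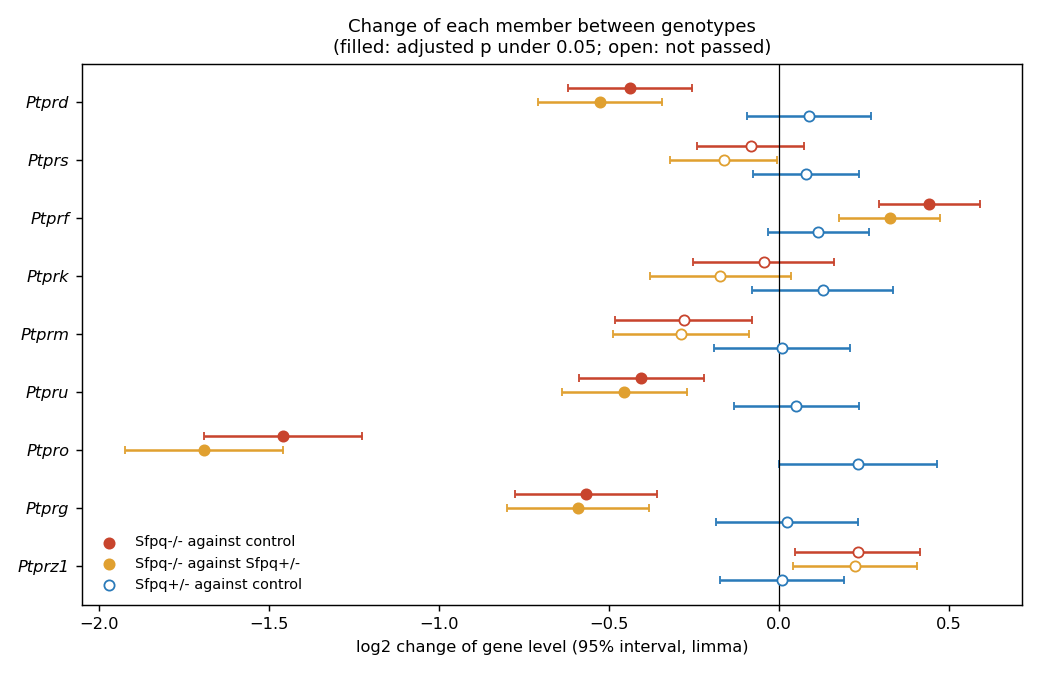
Log2 change of gene level with its 95% interval (horizontal axis) for each of 9 receptors (vertical axis) in the 3 comparisons of genotypes, filled where limma's adjusted p was under 0.05. Ptpro, Ptprg, Ptprd and Ptpru are filled below 0 and Ptprf above 0 in both comparisons with Sfpq-/-, and every Sfpq+/- against control value is open.

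Sfpq+/- cortex gave a mean above control for all 9 members, from 0.01 for Ptprz1 and Ptprm to 0.23 for Ptpro on the log2 scale. None passed (limma adjusted p between 0.886 and 0.99). The median log2 change was 0.08 for the members and 0.03 for all genes, so most genes also had a mean above control. Ptprz1, Ptprm and Ptprg (0.02) lay below the median of all genes. Of all 16854 genes, 0% passed in this comparison and 715 (4.24%) had an unadjusted p under 0.05; no member did, the smallest being 0.0503 for Ptpro. The 3 Sfpq+/- arrays lay above all control arrays in 4 members, Ptprd, Ptprf, Ptprk and Ptprs, where 8.52% of all genes did, and below them in no member, where 3.99% of all genes did. The signs for Ptprm, Ptprg and Ptprz1 changed with the processing.

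One Sfpq-/- sample was the highest of its group in most members. Replicate 2 had the highest gene level of the 3 Sfpq-/- arrays in 8 of the 9 members, among them 6 of the 7 with a lower mean. The others of the 8 were Ptprf and Ptprz1, which had a higher mean. How many of all genes showed this order was not counted, so it is not a trait shown for the members alone. For Ptprd replicate 2 read 9.28 against 9.09 and 8.99, and for Ptprg 9.44 against 9.07 and 9.12. In Ptpro replicate 2 was the middle value. Replicate 2 also had the most Sfpq signal of its group, 10.31 against 10.08 and 9.99 over the 12 bright probe sets. Over all probe sets replicate 2 had the lowest median of the 9 arrays, 5.648, and the widest spread (SD 2.544). Sfpq-/- replicate 3 was at the other end, with the highest median, 5.697, and the narrowest spread (SD 2.5079). The part of these in the members' spread was not tested. Without replicate 2, 6 members passed, 5 lower and 1 higher, Ptprm being the one added. Of all 16854 genes 1937 passed there, 1168 lower and 769 higher.

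Single probe sets, each covering about 1 exon or part of it, were tested across all 628415 kept probe sets. Of the 410 from the members, 46 passed in Sfpq-/- against control, 44 lower and 2 higher, where 1.75% of all probe sets passed, 1.19% lower and 0.561% higher. They were 26 of 33 for Ptpro, 11 of 78 for Ptprd, 6 of 43 for Ptprg and 1 each for Ptpru, Ptprf and Ptprk. The test has little power for small changes, and leaving out 1 array lowered the count of 46 to 25 without control replicate 1, 25 without control replicate 2, 28 without control replicate 3 and 24 without Sfpq-/- replicate 1. Probe sets that lay lower without overlap made up 100% of those of Ptpro, 74.4% of Ptprg, 67.6% of Ptpru, 61.5% of Ptprd, 31.1% of Ptprm, 23.3% of Ptprs and 11.9% of Ptprk, beside 10.4% over measured genes. Of the 43 Ptprf probe sets all had a higher mean and 95.3% lay higher without overlap, beside 10.9% over measured genes. All 46 Ptprz1 probe sets also had a higher mean, by 0.02 to 0.58, but 17.4% lay above the controls without overlap.

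**Figure D3:**
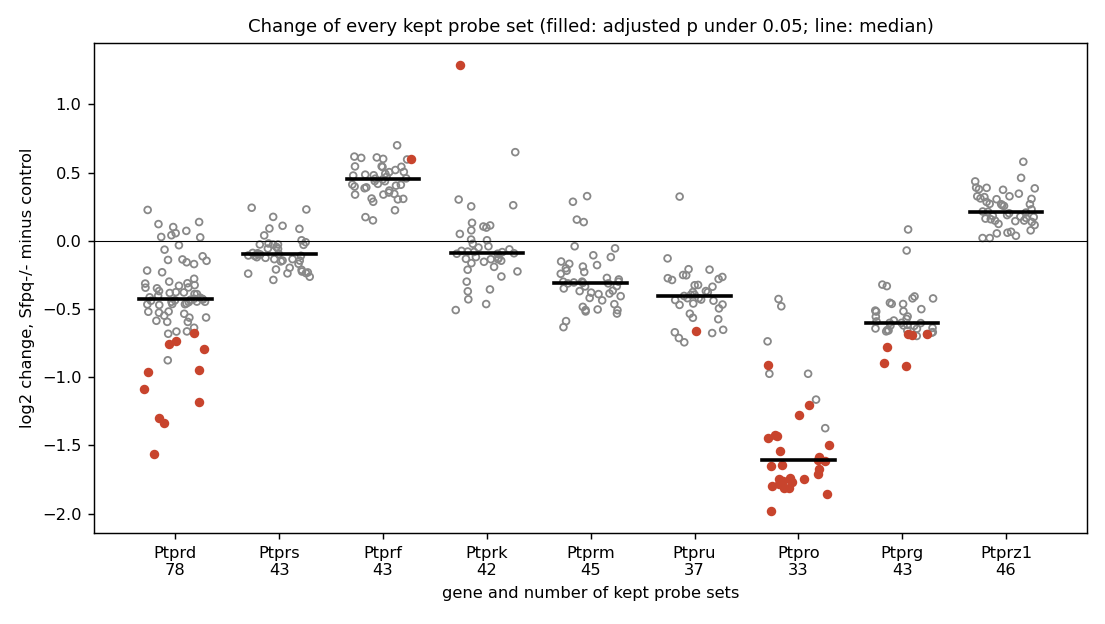
Log2 change in Sfpq-/- against control (vertical axis) of each of the 410 kept probe sets, by gene (horizontal axis, with the number of probe sets), filled where the adjusted p was under 0.05 and with a line at the median. The medians run from -1.61 for Ptpro to 0.45 for Ptprf, Ptprd spreads from -1.57 to 0.23, and 1 Ptprk probe set stands alone at 1.29.

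The probe sets of a gene did not all move alike. A probe set's signal minus its gene's level on the same array was tested over the 248590 probe sets of measured genes, and 8 of the members' 410 probe sets passed, 3 lower and 5 higher, beside 0.926% of all (0.444% lower and 0.483% higher). They were 4 of Ptprd, 3 of Ptpro and 1 of Ptprk. This count rests on single arrays: it was 1 without control replicate 1, 2 without control replicate 2, 4 without control replicate 3, 5 without Sfpq+/- replicate 1, 3 without Sfpq+/- replicate 2, 5 without Sfpq+/- replicate 3, 1 without Sfpq-/- replicate 1 and 4 without Sfpq-/- replicate 3.

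Relative to the gene level, 3 Ptprd probe sets were lower and 1 was higher. Probe set 4911645 had the lowest change: it read 9.57, 9.54 and 9.58 in controls, 9.72, 9.69 and 9.64 in Sfpq+/- and 7.74, 8.07 and 8.19 in Sfpq-/- (log2 change -1.57, SE 0.15, limma adjusted p = 0.000818). It moved by -1.13 relative to the gene level (SE 0.14, limma adjusted p = 0.0065), and this passed in each of 17 settings of the fit, the one reported and 16 others. Probe sets 4909685 and 4473923 changed by -1.33 and -1.30, and passed relative to the gene level in 7 and 8 of the 17 settings. In all, 7 Ptprd probe sets changed by less than -0.9, with control means between 7.84 and 9.56, while the brightest, 4821446, went from 11.81 to 11.37 (log2 change -0.45, SE 0.16, limma adjusted p = 0.309). The highest change, 0.23 (SE 0.18, limma adjusted p = 0.756), was that of probe set 4400455, and its arrays overlapped. Probe set 4812645, at 8.99 in controls and 9.05 in Sfpq-/-, was the 1 that stood above its gene (0.49, SE 0.09, limma adjusted p = 0.0462). This call was made in 5 of the 17 settings.

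The exceptions in Ptpro were its brightest probe set and 2 others. The lowest change was that of probe set 5232834, which read 10.24, 10.03 and 10.37 in controls and 8.32, 8.29 and 8.08 in Sfpq-/- (log2 change -1.98, SE 0.16, limma adjusted p = 0.000463). Probe set 5502180, the brightest, read 11.11, 11.30 and 11.13 in controls and 10.69, 10.64 and 10.78 in Sfpq-/- (log2 change -0.48, SE 0.13, limma adjusted p = 0.128). The latter stood 0.98 above its gene's change (SE 0.15, limma adjusted p = 0.0167). Probe set 5118977 had the highest change, -0.43, and stood 1.03 above the gene (SE 0.17, limma adjusted p = 0.0247), and 5217871 changed by -0.74. Relative to the gene, 5502180 passed in 14 of the 17 settings, 5118977 in 9 and 5217871 in 5. Among the 6 Ptpro probe sets that changed by no more than 1 the control means ran from 6.44 to 11.18, a range like that of the 27 others, 6.41 to 11.11.

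Ptprk, whose gene level did not pass, held 1 probe set that rose; it was singled out after its values were seen. Probe set 5608256 read 7.72, 7.86 and 8.30 in controls, 8.33, 8.04 and 8.08 in Sfpq+/- and 9.61, 9.17 and 8.97 in Sfpq-/- (log2 change 1.29, SE 0.21, limma adjusted p = 0.0155). All Sfpq-/- arrays lay above the other 6. Relative to the gene level it rose by 1.33 (SE 0.21, limma adjusted p = 0.0235), and either call was kept in 12 of 17 settings. The brightest Ptprk probe set, 4580960, read 11.77 in controls and 11.69 in Sfpq-/- with overlapping arrays. Where in the gene a probe set lies was not analysed here.

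In Ptprg, Ptpru and Ptprf no probe set passed relative to its gene. The lowest Ptprg change was -0.91 (probe set 5582527, limma adjusted p = 0.0403) and the highest 0.08 (4560229, limma adjusted p = 0.921), and the brightest, 4942118, went from 12.33 to 11.91. For Ptpru the lowest was -0.74 (5021309, limma adjusted p = 0.213), the brightest, 5599983, went from 12.16 to 11.59, and the highest, 0.32 (4396691, SE 0.40), came from a dim probe set whose control arrays spread from 4.59 to 6.35. Ptprf ran from 0.15 (4340658) to 0.70 (5321146), and its brightest probe set, 5188481, went from 12.23 to 12.54.

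**Figure D4:**
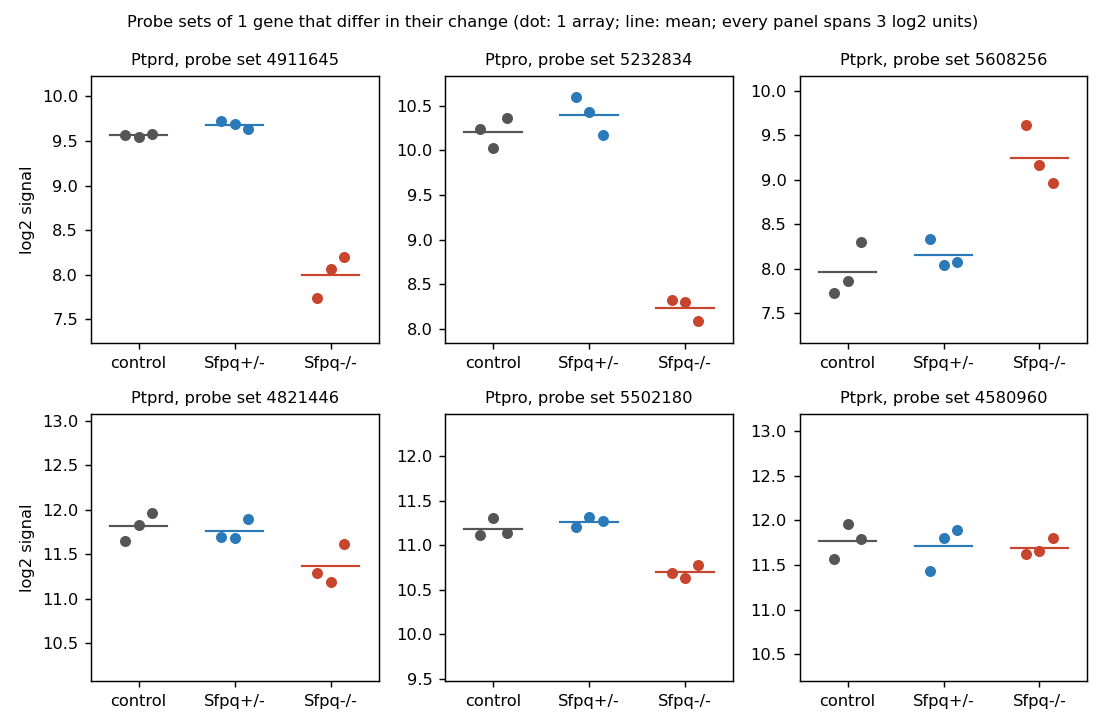
Log2 signal (vertical axis) on each array, by genotype (horizontal axis), of a strongly changed probe set (top) and the brightest probe set (bottom) of Ptprd, Ptpro and Ptprk. The top Ptprd and Ptpro probe sets are lower in Sfpq-/- by 1.57 and 1.98 log2 units and the brightest ones by 0.45 and 0.48, and the top Ptprk probe set is higher by 1.29 while the brightest one overlaps.

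Gene span, the distance from a gene's first to its last annotated base in RefSeq (GRCm38.p6), differs widely among the members. The spans are 2271 kb for Ptprd, 689 kb for Ptprg, 688 kb for Ptprm, 523 kb for Ptprk, 212 kb for Ptpro, 178 kb for Ptprz1, 83.2 kb for Ptprf, 69.8 kb for Ptpru and 64.1 kb for Ptprs. Of the 4 members of at least 500 kb, Ptprd and Ptprg fell and Ptprm and Ptprk did not pass; over all 205 measured genes of that class 58% fell and the median log2 change was -0.45. Ptpro changed by -1.46 in the class of 200 to 500 kb, whose 713 genes had a median of -0.18 and quartiles of -0.54 and 0.02. Ptpru, among the shortest members, also fell, and in genes under 100 kb 2.83% fell and the median was 0.04. Over the 9 members the change and the log10 span had a Pearson correlation of -0.25 and a Spearman correlation of -0.45, as a description over genes that share the same arrays. The part of span in the members' changes was not tested.

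The 11 other receptor-type tyrosine phosphatases were all measured. In Sfpq-/- against control none of them fell and 2 rose, where 6.12% of all genes fell and 5.98% rose. Ptprn, an inactive phosphatase of secretory granules, rose by 0.56 (SE 0.08, limma adjusted p = 0.00105). Ptprj, a receptor with fibronectin repeats like Ptpro, rose by 0.31 (SE 0.08, limma adjusted p = 0.0226), but this call ended without control replicate 1 (adjusted p = 0.0608), control replicate 2 (adjusted p = 0.0786), control replicate 3 (adjusted p = 0.0632), Sfpq-/- replicate 1 (adjusted p = 0.0981) and Sfpq-/- replicate 2 (adjusted p = 0.0599). Ptprj also missed the threshold without the filter on dim probe sets (adjusted p = 0.0744), in a fit of only the 2 groups (adjusted p = 0.0664) and when probe sets were summarized by their median (adjusted p = 0.216). The list's changes ran from -0.02 to 0.56 with a median of 0.02, against 0.03 for all genes. Ptprn2, named after its values were seen because it spans 792 kb, changed by 0.02 (95% interval -0.16 to 0.21, limma adjusted p = 0.903).

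**Figure D5:**
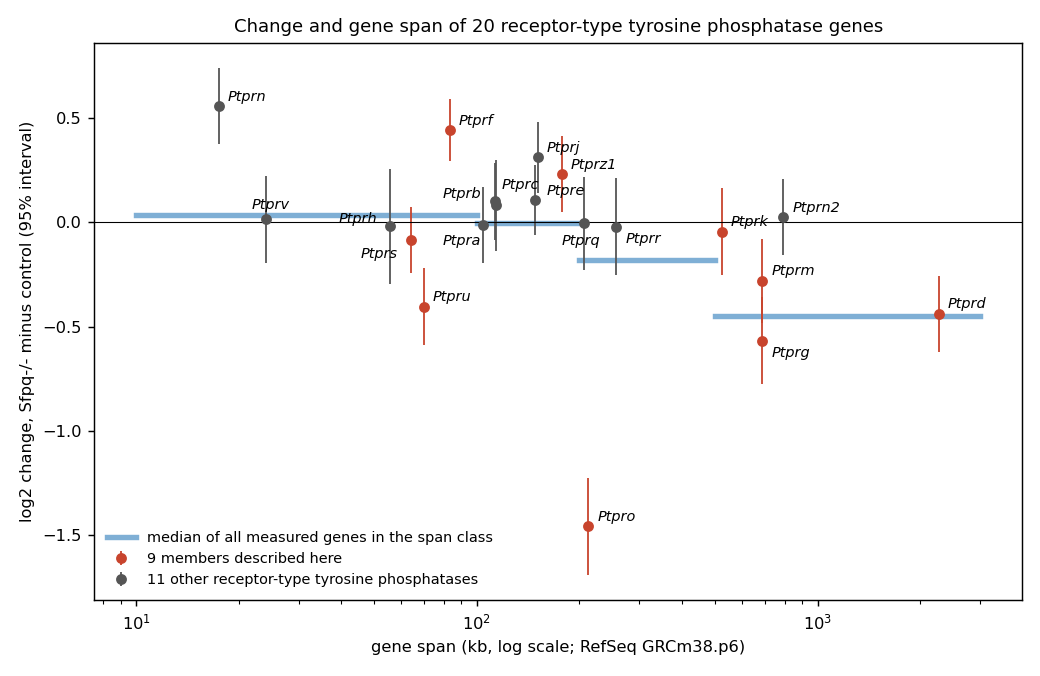
Log2 change in Sfpq-/- against control with its 95% interval (vertical axis) against gene span in kb on a log axis, for the 9 members and 11 other receptor-type tyrosine phosphatases, with the median of all measured genes in each span class. In the longest class, with a median of -0.45, Ptprd lies at -0.44, Ptprg at -0.57, Ptprm at -0.28, Ptprk at -0.04 and Ptprn2 at 0.02, and Ptpro lies below its class median of -0.18.

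Of 20 measured genes in a list of 22 extracellular ligands and partners of these receptors, 11 fell, none rose and 9 did not pass in Sfpq-/- against control, where 6.12% of all genes fell, and the list's median log2 change was -0.36 against 0.03 for all genes. Ptn, which encodes pleiotrophin, the growth factor ligand of Ptprz1, read 10.58, 10.47 and 10.46 in controls, 10.60, 10.60 and 10.48 in Sfpq+/- and 9.04, 9.25 and 8.70 in Sfpq-/-. It fell 2.85-fold (log2 change -1.51, SE 0.12, limma adjusted p = 1.26e-05) with no overlap. The other growth factor of the list, Mdk (midkine), named after its values were seen, changed by -0.23 (SE 0.09, limma adjusted p = 0.154) with overlapping arrays, and by -0.55 (limma adjusted p = 0.0051) when the gene level was the median of its probe sets; it also passed with the stricter filter (adjusted p = 0.0465). Ntrk3, which encodes TrkC, the neurotrophin receptor that binds Ptprs, read 9.55, 9.47 and 9.59 in controls and 8.09, 8.28 and 8.21 in Sfpq-/-, 2.54-fold lower (log2 change -1.35, SE 0.08, limma adjusted p = 1.86e-06). Lrfn5, a synaptic adhesion partner of the LAR group, changed by -1.11 (limma adjusted p = 0.000111), and Cntn5, a contactin that binds Ptprg, by -0.79 (limma adjusted p = 2.83e-05). The tenascins Tnc and Tnr, matrix proteins that bind Ptprz1, changed by -0.52 (limma adjusted p = 0.00948) and -0.49 (limma adjusted p = 0.00223), the latter call ending with the median as gene level (adjusted p = 0.0599). Against Sfpq+/-, 14 of the 20 fell, where 7.25% of all genes did. Several of the partners named as lower are long: Cntn5 spans 1271 kb, Tnr 408 kb, Ntrk3 401 kb and Lrfn5 335 kb. Against control 58% of all genes of at least 500 kb and 38.1% of those of 200 to 500 kb fell. Ptn (95.3 kb) and Tnc (87.2 kb) are in the class under 100 kb, where 2.83% fell. The part of span in the list's fall was not tested.

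Of 11 measured intracellular partners, Ppfibp1, a liprin-beta, rose by 0.51 (SE 0.09, limma adjusted p = 0.00281) in Sfpq-/- against control. No other partner passed there, where 6.12% of all genes fell and 5.98% rose. The median log2 change of the partners was 0.09 against 0.03 for all genes. The liprin-alpha genes, the scaffold partners of the LAR group, changed by -0.20 (Ppfia2) to 0.09 (Ppfia3) and did not pass against control. Against Sfpq+/-, Ppfia2 fell by 0.45 (SE 0.10, limma adjusted p = 0.0136) and Ppfibp1 rose by 0.42 (SE 0.09, limma adjusted p = 0.00805). In that comparison 7.25% of all genes fell and 4.58% rose.

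The genes most like Ptpro over the 9 arrays, by Pearson correlation of gene level, were Gnao1 (r = 0.997), Ctnnd2 (r = 0.997), Rai1 (r = 0.996), Mvb12b (r = 0.995) and Gria2 (r = 0.995). All 5 fell in Sfpq-/-, by log2 changes of -0.81, -1.34, -0.56, -0.91 and -1.15. The 9 arrays are of 3 genotypes that differ in level, and the correlations include that difference.

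Markers of cell types moved in part in Sfpq-/- against control, where 6.12% of all genes fell and 5.98% rose. Of 7 dorsal forebrain markers Neurog2, Neurod6 and Eomes fell, and the mean level of the 7 ran from 10.13 to 10.14 in controls and from 9.85 to 9.99 in Sfpq-/-. Of 9 microglia and macrophage markers 7 rose, and their mean ran from 7.90 to 7.96 in controls and from 8.23 to 8.26 in Sfpq-/-. None of 6 radial glia markers and none of 4 neuronal markers passed: the radial glia mean ran from 11.17 to 11.33 in controls and from 11.22 to 11.46 in Sfpq-/-, and the neuronal mean from 11.08 to 11.25 and from 11.18 to 11.22. Of 6 endothelial and pericyte markers Rgs5 rose, and of 7 ganglionic eminence and interneuron markers Gad1 rose. The mean of these 7 spread widely among controls, from 8.71 to 9.57, and ran from 9.10 to 9.23 in Sfpq-/-. Of 5 dorsal midline and choroid plexus markers Rspo3 rose, and none of 6 meningeal markers and 1 erythroid marker passed. The part of the cell types in the members' changes was not tested. In whole cortex, fewer cells that use a gene and less RNA per cell cannot be told apart.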

How the data were processed

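Total RNA of 9 embryonic mouse cortex samples was hybridised, 1 array each. The authors deposited 1 log2 signal for each probe set and array. The submitters' processing notes name Affymetrix Expression Console 1.2.0.20; how background was corrected and arrays were normalized and summarized is not stated in the sources used. The log2 scale was read from the values, with array medians between 5.648 and 5.697, and nothing further was normalized. No pair of arrays was identical.

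Gene symbols of probe sets come from the platform annotation: of 1256831, 318760 had 1 gene symbol, 6684 had several (1 of these included a member and was not used) and 931387 had none there. Symbols were brought up to date through unique RefSeq synonyms (18006 current, 3993 updated, 63 kept, 234 left because symbols would merge). Probe sets with a mean above 5.64 were kept (628415), and genes with at least 3 of them were measured (16854 genes from 248590 probe sets).

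All 9 arrays entered 1 model of 3 group means in limma 3.58.1 (lmFit, eBayes, R 4.3.3), with Benjamini-Hochberg adjustment over all features. The number of arrays limits the precision; the median standard error of a difference was 0.096 per gene. The members and lists were chosen with earlier results of these data known. All members are named; of each list, up to 6 genes with the smallest adjusted p among those that passed; of each member that passed, its brightest, lowest and highest probe set; and the 5 genes closest in pattern to the member that changed most.

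The tests were run on simulated data. The simulated noise was independent between features and arrays, and 100 features were changed at each size. In the data 2040 genes were called in Sfpq-/- against control. Deviations shared by many genes were not simulated, so the shares found and the false calls can differ in the data. For Sfpq-/- against control among 16854 genes, 55% of genes changed by 0.5 and 97% of those changed by 1 were found, with 9 false calls, and 0 calls were made for Sfpq+/- against control with none changed. Among 628415 probe sets, 2% were found at a planted change of 1 and 43% at 2, with 0 false calls. For probe sets relative to their gene, 20% at 1 and 71% at 2 were found among 248590, with 5 false calls.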

Additional observations from a re-analysis of the deposited data

How the results depend on the processing

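The calls of Ptpro, Ptprg, Ptprd, Ptpru and Ptprf in both comparisons with Sfpq-/- were kept in all 17 alternatives (probe set filter, median as gene level, normalization, array weights, replicate block, fewer groups, 1 sample left out). Leaving out each of the 9 samples in turn gave 5 to 6 members called in either comparison and 0 in Sfpq+/- against control. In these fits 1311 to 2453 of all 16854 genes were called against control and 1397 to 2267 against Sfpq+/-. Of the members' probe sets 24 to 44 were called and 1 to 6 stood apart from their gene.

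With array weights, where Sfpq-/- replicate 1 weighed 30.1 and replicate 3 weighed 0.215, all 9 members passed in both comparisons with Sfpq-/-. So did 11465 of all 16854 genes against control and 7198 against Sfpq+/-. Of the members' probe sets 347 passed and 250 stood apart from their gene. These weights make the fit rest on few arrays. Without the filter on dim probe sets 30 of the members' probe sets passed and 3 stood apart. With the stricter filter they were 92 and 14, and with only the 2 groups compared 26 and 2. The shares over all probe sets were not counted in these alternatives. The replicate numbers of the titles were not taken to pair the samples: deviations of same-numbered samples correlated between -0.06 and 0.57, not above 0.1 in every pair, and not every sample correlated best with its own number. With the replicate block 5 probe sets stood apart, and the block changed no call of a member and no other count by over 1.5 times. The causes were not tested.

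Signs that changed were all of values that had not passed. In Sfpq+/- against control Ptprm was -0.0136 without the filter, -0.00552 with the stricter filter, -0.0179 with the median, -0.00843 with quantile normalization, and between -0.0357 and 0.0319 with 1 sample left out. There Ptprg was -0.0562 with the median, and Ptprz1 was -0.00868 with quantile normalization and between -0.0449 and 0.0375 with 1 sample left out. In Sfpq-/- against control Ptprk was between -0.142 and 0.0335 with 1 sample left out, and Ptprn2 was -0.0156 with the median, -0.00174 with array weights and between -0.0452 and 0.0678 with 1 sample left out. Over the results of single genes, 649 alternative values kept sign and call, 17 lost a call, 16 gained one and 14 changed sign.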

Other observations

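Cytosolic tyrosine phosphatases, which share the catalytic domain but have no membrane anchor, were measured beside the receptors. Of 16, Ptpn13, a large PDZ- and FERM-domain phosphatase, rose by 0.90 (SE 0.09, limma adjusted p = 6.77e-05) in Sfpq-/- against control. Ptpn14, a FERM-domain phosphatase that acts on the Hippo pathway, rose by 0.39 (SE 0.09, limma adjusted p = 0.0147), a call that ended without control replicate 1 (adjusted p = 0.0576) and with the median as gene level (adjusted p = 0.133). Ptpn5, which encodes the neuronal phosphatase STEP, fell by 0.36 (SE 0.09, limma adjusted p = 0.0197). It no longer passed without control replicate 1 (adjusted p = 0.0693), control replicate 2 (adjusted p = 0.064), Sfpq-/- replicate 1 (adjusted p = 0.0924) and Sfpq-/- replicate 2 (adjusted p = 0.0581), in a fit of only the 2 groups (adjusted p = 0.0593) or with the median as gene level (adjusted p = 0.096). The median log2 change of the 16 was 0.02 against 0.03 for all genes, and 13 did not pass. Over all genes 6.12% fell and 5.98% rose in this comparison.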
